A study of Mus musculus with 6 samples.

Results

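The genes described here are 10 transcriptional regulators of heart energy metabolism, chosen by symbol: the peroxisome proliferator-activated receptors Ppara, Ppard and Pparg, the oestrogen-related receptors Esrra, Esrrb and Esrrg, the coactivators Ppargc1a and Ppargc1b (PGC-1α and PGC-1β), the retinoid X receptor Rxra and the thyroid hormone receptor Thra. They are 10 of the 43629 genes counted in each heart, and all 10 passed the filter on low counts that left 13092 genes for testing. RNA was measured in left ventricles of male CD-1 F1 mice, an outbred stock, at 1 year of age, 3 hearts per group. Dams of the vehicle hearts received normal saline and dams of the caffeine hearts received 20 mg/kg caffeine, in either case as a daily intraperitoneal injection from embryonic day (E) 6.5 to E9.5. A second field of the labels ends the exposure at E10.5. The adult mice themselves received nothing after birth that the labels record. The study also lists echocardiography, and dobutamine treatment at younger ages, for F1 offspring of this exposure. Whether the hearts measured here came from mice given dobutamine is not stated. The labels do not tie a heart to a dam or litter. The p-values therefore measure only the spread between these 6 hearts, and hearts of littermates cannot be told apart from hearts of unrelated mice.

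PPARs are ligand-activated nuclear receptors that bind fatty acids and their derivatives, pair with a retinoid X receptor, and switch on genes for fatty acid uptake, storage and oxidation. ERRs are orphan nuclear receptors that bind DNA without a known natural hormone and drive genes of the tricarboxylic acid cycle and the respiratory chain. PGC-1 coactivators do not bind DNA themselves but dock on both receptor families, and in the heart, which burns mostly fatty acids, they couple energy demand to mitochondrial capacity. The thyroid hormone receptor also pairs with retinoid X receptors, and in ventricle it sets the balance of the fast myosin gene Myh6 against the slow myosin gene Myh7. The question addressed was whether the adult ventricle of mice exposed to caffeine as embryos carried different levels of these regulators and of the genes they control.

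None of the 10 regulators passed the test between caffeine and vehicle hearts. The fitted level was lower in the caffeine hearts for 7 of them and higher for 3 (Pparg, Ppargc1a and Esrra), against 49.8% of all tested genes lower and 50.2% higher. A gene was called at an edgeR quasi-likelihood adjusted p below 0.05 with an absolute fold change above 1.5, and 0.107% of the 13092 genes met that rule (0.084% higher and 0.0229% lower). No regulator was called by edgeR's exact or likelihood ratio test, DESeq2 or limma-voom either. The 95% interval of every regulator lay inside a 1.5-fold change in either direction, with the widest bounds at 0.724 times the vehicle level for Rxra and 1.38 times for Pparg. Rxra and Pparg were the only regulators of the 10 whose groups did not overlap, 1 in each direction, where 7.12% of all tested genes had every caffeine heart below every vehicle heart and 7.11% had every caffeine heart above.

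Starts of the regulators were read from RefSeq (assembly GRCm38.p6) to show the control regions of the 3 genes that the results turn on: Rxra, the regulator with the smallest p, Ppargc1a, the most variable among the vehicle hearts, and Esrra, the most abundant. RefSeq promoters were searched for 8 of the 10 regulators, at 15 start sites. Ppargc1b was left out of the search, and no promoter entry was used for Thra. Each printed stretch runs 5′ to 3′ on the gene's strand from 200 to 11 bases before the start site and holds no base of an annotated exon. Capitals mark matches to a motif on either strand.
Rxra, first start site, plus strand, chr2:27677001-27677190: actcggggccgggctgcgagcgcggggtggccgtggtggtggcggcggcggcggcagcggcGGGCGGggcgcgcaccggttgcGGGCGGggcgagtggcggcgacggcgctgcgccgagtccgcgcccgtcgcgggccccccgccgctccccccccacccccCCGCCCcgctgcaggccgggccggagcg
Rxra, downstream start site, plus strand, chr2:27709092-27709281: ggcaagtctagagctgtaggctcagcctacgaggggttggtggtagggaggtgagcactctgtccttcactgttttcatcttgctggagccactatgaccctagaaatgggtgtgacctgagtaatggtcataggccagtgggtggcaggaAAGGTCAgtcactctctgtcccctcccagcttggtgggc
Ppargc1a, minus strand, chr5:51567736-51567925: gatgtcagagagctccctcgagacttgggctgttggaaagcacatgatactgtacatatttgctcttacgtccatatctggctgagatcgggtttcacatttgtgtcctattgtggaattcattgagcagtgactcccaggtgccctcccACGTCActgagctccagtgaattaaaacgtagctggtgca
Esrra, minus strand, chr19:6921819-6922008: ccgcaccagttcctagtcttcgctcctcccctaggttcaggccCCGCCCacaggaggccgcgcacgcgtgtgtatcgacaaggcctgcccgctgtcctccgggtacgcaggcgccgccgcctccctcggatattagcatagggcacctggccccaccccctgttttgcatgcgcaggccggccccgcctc
The capitals at the first Rxra start site and at Esrra are GC boxes (GGGCGG, or CCGCCC when read on the other strand), the kind of element bound by SP1. Those at the downstream Rxra start site are AAGGTCA, the core of the longer half-site that ERRs recognize. The bases before this core were not part of the search. Those at Ppargc1a are ACGTCA, the reverse strand of the cAMP response element core TGACGT. Over the 250 bases before the start, on both strands, GC boxes were matched in 32.7% of 32851 RefSeq promoters, TGACGT in 6.47% and AAGGTCA in 4.08%. Direct repeats of AGGTCA spaced by 1 base, bound by PPARs (in 0.0335% of promoters), or by 4 bases, bound by thyroid hormone receptors (in 0.0152%), and the E-box CACGTG (6.02%) had no match at the 15 start sites. The MEF2 motif, CTA and TAG with any 4 bases between them, found in 3.2% of promoters, and TATAAA, found in 12.4%, were matched at an Esrrg start site, overlapping each other, and TATAAA also at a Pparg start site. A match describes letters in a window and does not show that a factor binds there.

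The tissue carried the markers of ventricular myocardium. The summed level of 8 ventricular cardiomyocyte markers was 59266 to 68744 CPM (a gene's counts relative to the TMM-scaled total of its library) in vehicle hearts and 57662 to 62164 in caffeine hearts. The atrial markers Sln, Myl7, Myl4 and Bmp10 summed to at most 2.35 CPM in any heart. Total counts were 7613011 to 9153997 in the caffeine hearts and 9228359 to 10483101 in the vehicle hearts, so every caffeine library was shallower, and 3 counts corresponded to 0.286 to 0.394 CPM. The 10 genes with most counts in a library took 22.6% to 26.0% of the counts in caffeine hearts and 17.1% to 20.1% in vehicle hearts. Vehicle replicate 1 stood apart for target genes, as given beside them. In this bulk tissue, fewer cells of a type and less RNA per cell cannot be told apart.

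Per length of exon, Esrra was the most abundant regulator, at 59.5 ± 4.48 RPKM (CPM per kilobase of exon, mean ± SD over the 6 hearts). Ppargc1a followed at 19.7 ± 3.39, Rxra at 16.5 ± 1.90, Thra at 16.1 ± 1.59 and Ppara at 12.1 ± 1.43 RPKM. Esrrg stood at 10.2 ± 0.761, Esrrb at 6.55 ± 0.485, Ppargc1b at 5.53 ± 0.865, Ppard at 5.24 ± 0.288 and Pparg at 4.83 ± 0.414 RPKM. Esrra was above Ppargc1a in 6 of 6 hearts, and so were Thra above Ppara, Ppara above Esrrg and Esrrg above Esrrb. The other neighbours were not in the same order in every heart: Ppargc1a was above Rxra in 5, Rxra above Thra in 4, Esrrb above Ppargc1b in 5, Ppargc1b above Ppard in 3 and Ppard above Pparg in 4 of the 6. With the length of the longest transcript in place of all exons, Thra came next after Esrra, at 30.4 ± 2.99 RPKM. Ppargc1b then came last, at 6.04 ± 0.944 RPKM. The order below Esrra therefore depends on which exons are counted.

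**Figure D1:**
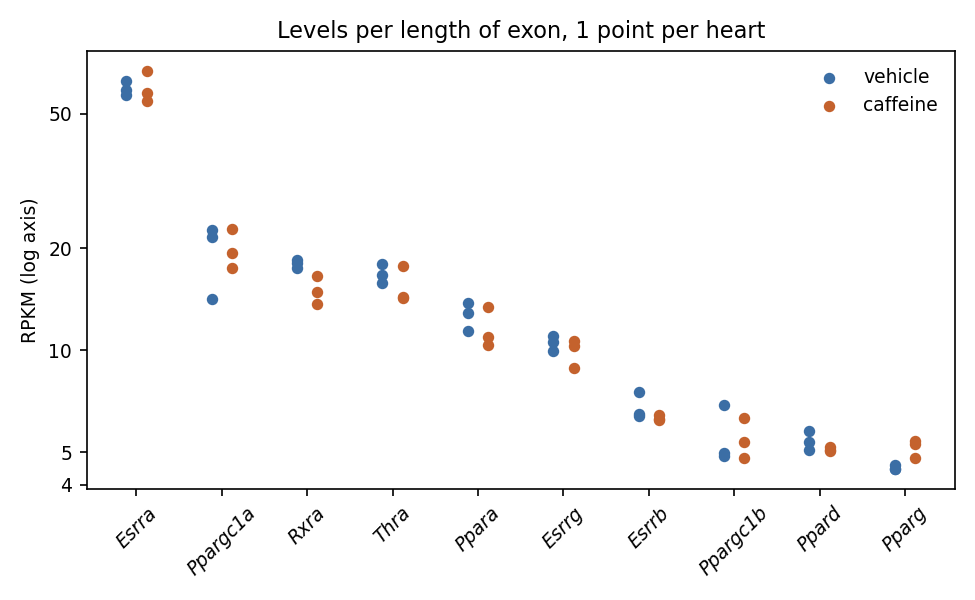
Level of each regulator per length, in RPKM over all annotated exons on a log axis, with a point for each of the 3 vehicle and 3 caffeine hearts and genes ordered by their mean. Esrra lies above every other regulator in all 6 hearts, and the lowest 3 genes (Ppargc1b, Ppard and Pparg, means of 5.53, 5.24 and 4.83 RPKM) overlap.

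Among the PPARs, Ppara (chromosome 15), the main driver of fatty acid oxidation in the adult heart, was measured at 49.5, 52.8 and 43.7 CPM in vehicle hearts and 39.8, 51.6 and 41.9 CPM in caffeine hearts. The highest vehicle heart and the highest caffeine heart were close, and the groups overlapped. The log2 fold change, caffeine over vehicle, was -0.13 ± 0.12 (SE, n = 3 and 3, adjusted p = 0.821), with a 95% interval from -0.40 to 0.14. Ppard (chromosome 17), which shares most of its target genes with Ppara in muscle, was measured at 40.3, 43.4 and 38.2 CPM in vehicle hearts and 38.8, 38.0 and 37.8 CPM in caffeine hearts. The caffeine values lay close together, with an SD of 0.526 CPM, near the lowest vehicle heart, and the log2 fold change was -0.09 ± 0.10 (adjusted p = 0.849).

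Pparg (chromosome 6), the adipogenic member of the family and the target of glitazone drugs, was the least abundant regulator in CPM. It was measured at 13.2, 13.2 and 13.6 CPM in vehicle hearts and 16.0, 15.6 and 14.2 CPM in caffeine hearts, from raw counts of 114 to 139. All 3 caffeine hearts were above all 3 vehicle hearts, by a log2 fold change of 0.19 ± 0.12 that did not pass the test (adjusted p = 0.708, 95% interval -0.08 to 0.47). An exact permutation test on this gene gave p = 0.1, the smallest p that 3 against 3 hearts allow. The summed level of 6 adipocyte markers, Adipoq and Plin1 among them, was near 0 in every heart, at 0.113 to 0.586 CPM in caffeine hearts and 0.709 to 3.13 CPM in vehicle hearts. Summed macrophage markers, from another cell type that expresses Pparg, were 148 to 277 CPM in caffeine hearts and 122 to 193 CPM in vehicle hearts, and their part in the result was not tested.

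Among the ERRs, Esrra (chromosome 19) was the highest regulator in CPM as well as per length, at 258, 249 and 274 CPM in vehicle hearts and 294, 239 and 253 CPM in caffeine hearts. The lowest and the highest of the 6 hearts were both caffeine hearts, and the log2 fold change was 0.01 ± 0.10 (adjusted p = 0.990, 95% interval -0.20 to 0.22). The sign of this value turned with library size alone as the scaling (-0.080), with no filter on low counts (-0.013) and without vehicle replicate 2 (-0.023) or caffeine replicate 1 (-0.081). Esrrb (chromosome 12), best known from pluripotent cells, was measured at 38.6, 45.4 and 39.3 CPM in vehicle hearts and 38.9, 37.8 and 37.5 CPM in caffeine hearts, a log2 fold change of -0.11 ± 0.10 (adjusted p = 0.816). Esrrg (chromosome 1), which promotes oxidative metabolism in the perinatal and adult heart, was measured at 61.5, 68.3 and 65.4 CPM in vehicle hearts and 54.9, 63.9 and 66.0 CPM in caffeine hearts. Only caffeine replicate 1 was below the vehicle range, and the log2 fold change was -0.08 ± 0.10 (adjusted p = 0.884). Exons of Esrra share 73 of 4387 bases with the antisense gene Trmt112, which had 1 to 10 counts, and the library kit does not mark strand.

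Rxra (chromosome 2), the shared partner of PPARs, thyroid hormone receptors and retinoic acid receptors, had the smallest p of the 10. It was measured at 95.7, 101 and 99.1 CPM in vehicle hearts and 81.3, 74.8 and 90.3 CPM in caffeine hearts, from 581 to 1065 raw counts. All 3 caffeine hearts were below all 3 vehicle hearts. The vehicle mean was 98.5 ± 2.56 CPM (SD, n = 3) and the caffeine mean 82.2 ± 7.76 CPM (SD, n = 3). The log2 fold change was -0.26 ± 0.09, or 0.834 times the vehicle level with a 95% interval from 0.724 to 0.961. Its edgeR quasi-likelihood p was 0.0165 before and 0.407 after adjustment over all genes, and 529 of the 13092 genes had a smaller p, so Rxra did not pass. An unadjusted p below 0.05 was met by 1 of the 10 regulators and by 8.82% of all tested genes. Over 17 alternative analyses its log2 fold change stayed between -0.35 and -0.20 and its adjusted p between 0.251 and 0.706.

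Thra (chromosome 11), the predominant thyroid hormone receptor of the heart, was measured at 73.1, 82.9 and 76.9 CPM in vehicle hearts and 81.6, 66.4 and 65.9 CPM in caffeine hearts. Caffeine replicates 2 and 3 lay below the vehicle hearts and caffeine replicate 1 lay among them, giving a log2 fold change of -0.12 ± 0.11 (adjusted p = 0.801). Thra shares 263 of its 4614 exon bases with the antisense clock gene Nr1d1, which had 290 to 583 counts, and reads from the shared stretch cannot be assigned without strand.

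The coactivator Ppargc1a (chromosome 5), induced by exercise, cold and fasting, was the least steady regulator. It was measured at 142, 149 and 93.3 CPM in vehicle hearts and 150, 128 and 116 CPM in caffeine hearts. Vehicle replicate 3 was the lowest of the 6 hearts, and the caffeine hearts lay inside the vehicle range but for caffeine replicate 1, which was just above it. The coefficient of variation among vehicle hearts was 23.8%, against 2.75% from counting error alone. The log2 fold change was 0.03 ± 0.16 (adjusted p = 0.980, 95% interval -0.33 to 0.39). Ppargc1b (chromosome 18), its paralogue with a role in basal mitochondrial content, was measured at 19.8, 27.4 and 19.5 CPM in vehicle hearts and 21.4, 25.2 and 19.1 CPM in caffeine hearts, a log2 fold change of -0.02 ± 0.16 (adjusted p = 0.985). The signs of both PGC-1 values turned when single hearts were left out, and that of Ppargc1a also with library size alone as the scaling.

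**Figure D2:**
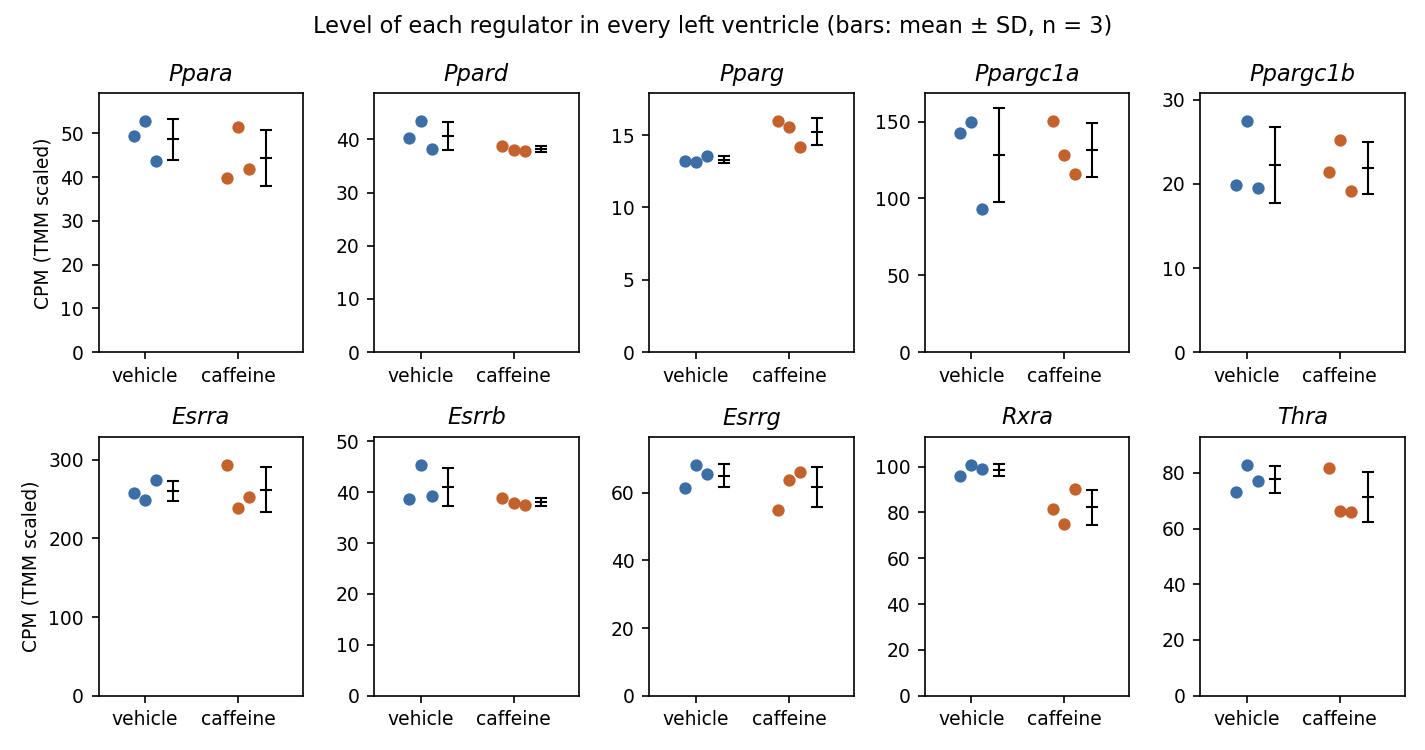
Level of each of the 10 regulators in every heart, in TMM-scaled CPM on axes that start at 0, with points for the 3 vehicle and 3 caffeine hearts and the mean ± SD of each group. The groups separate for Rxra (caffeine 74.8 to 90.3 CPM, vehicle 95.7 to 101 CPM) and Pparg (14.2 to 16.0 against 13.2 to 13.6 CPM) and overlap for the other 8.

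**Figure D3:**
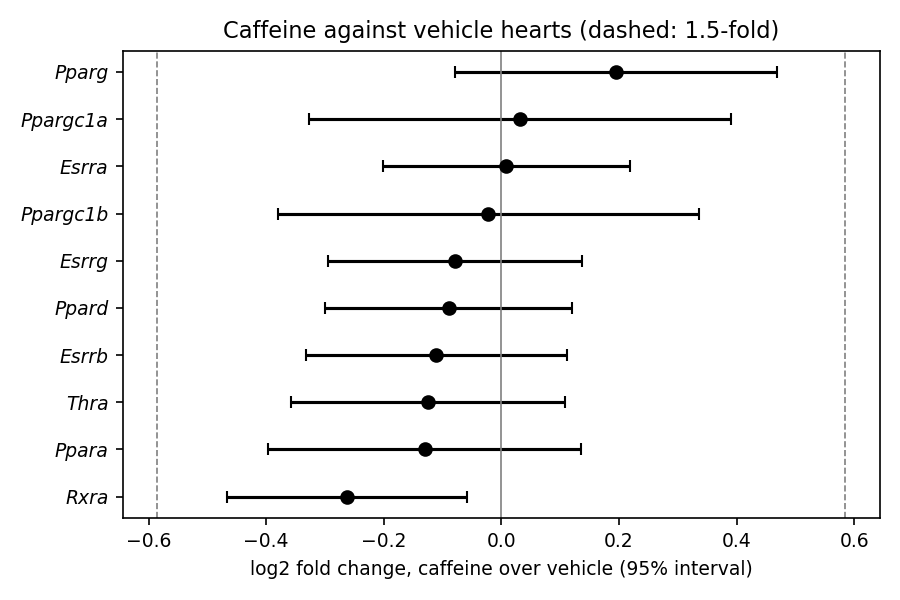
Fitted log2 fold change of each regulator, caffeine over vehicle, with its 95% interval from the quasi-likelihood fit and the 1.5-fold limits. The Rxra interval (-0.47 to -0.06) is the only interval of the 10 that leaves out 0, before adjustment, and no interval reaches a limit.

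Single hearts moved several regulators together. Vehicle replicate 2 was the highest of the 6 hearts for 7 of the 10 regulators, while it was the highest for 16.0% of all tested genes, and caffeine replicate 1 was the highest for the other 3 (Pparg, Ppargc1a and Esrra). The median deviation of the regulators from their mean over the 6 hearts was 0.16 on the log2 scale in vehicle replicate 2 and between -0.07 and -0.02 in the other hearts. Without vehicle replicate 2 the median log2 fold change of the 10 regulators moved from -0.08 to -0.04, and without vehicle replicate 3 it moved to -0.13. With a heart left out, the log2 fold change ran from -0.25 (without caffeine replicate 2) to -0.06 (without caffeine replicate 1) for Ppara and from -0.13 to -0.04 (without vehicle replicate 2) for Ppard. It ran from -0.15 to -0.03 (without vehicle replicate 2) for Esrrb, from -0.13 to -0.0038 (without caffeine replicate 1) for Esrrg and from -0.23 (without caffeine replicate 1) to -0.07 (without caffeine replicate 3) for Thra. These 5 kept their sign in each of those fits. With library size alone as the scaling, the 5 values lay between -0.21 and -0.16, and Pparg was at 0.11.

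Ratios of 2 genes within a library do not depend on library size, and 6 pairs were compared by exact permutation tests, none of which could go below p = 0.1. The count ratio of Rxra to Rxrb, its ubiquitous paralogue, was 1.58, 1.87 and 1.74 in vehicle hearts and 1.21, 1.29 and 1.54 in caffeine hearts. The groups did not overlap, with a log2 difference of -0.36 (exact permutation p = 0.1, adjusted p = 0.3 over the 6 pairs). Rxrb itself was measured at 53.9 to 60.8 CPM in vehicle hearts and 57.9 to 67.2 CPM in caffeine hearts (log2 fold change 0.10 ± 0.10, adjusted p = 0.839). The ratio of Myh6 to Myh7 was 22.7, 17.8 and 15.2 in vehicle hearts and 10.2, 11.8 and 12.8 in caffeine hearts, again without overlap, with a log2 difference of -0.66 (exact permutation p = 0.1, adjusted p = 0.3). The other 4 pairs overlapped, with log2 differences of 0.07 for Ppargc1a to Ppargc1b, 0.09 for Esrra to Esrrg, -0.05 for Ppara to Ppard and 0.19 for Thra to Thrb (exact permutation, adjusted p = 0.8 for each of the 4).

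Genes with the profile most like that of Rxra over the 6 hearts were ranked by the root mean square difference of centred log2 CPM, whose median over all tested genes was 0.230. They were Os9 (0.0276), a lectin of endoplasmic reticulum quality control, Egln1 (0.0342), the oxygen sensor that marks HIF-1α for degradation, Leprotl1 (0.0351), Gigyf1 (0.0430) and Pank3 (0.0443), a kinase of coenzyme A synthesis. Egln1 was measured at 798, 805 and 810 CPM in vehicle hearts and 679, 628 and 711 CPM in caffeine hearts, a log2 fold change of -0.26 ± 0.08 (adjusted p = 0.348). None of the 5 passed the test, and fold changes near that of Rxra follow from how these genes were picked.

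Among the partners of these receptors, 12 of 13 listed genes were tested, and 8 were lower and 4 higher, with a median log2 fold change of -0.03 beside 0.00088 over all tested genes. The sign of this median turned, to 0.0096 without vehicle replicate 2 and to 0.00051 where at least 10 counts in every heart were required, and it was -0.08 without vehicle replicate 1. None of the 12 passed. An unadjusted p below 0.05 was met by 1 of 12, against 8.82% of all tested genes. In 1 of 12 every caffeine heart was below every vehicle heart, against 7.12%. Thrb, the other thyroid hormone receptor, was measured at 30.4, 31.7 and 34.0 CPM in vehicle hearts and 22.3, 29.1 and 26.0 CPM in caffeine hearts, with all caffeine hearts below (log2 fold change -0.31 ± 0.12, adjusted p = 0.488). The smaller p-values otherwise belonged to the orphan receptors Nr2f1 (-0.77 ± 0.42, at 0.677 to 3.04 CPM), Nr0b2 (0.25 ± 0.17) and Nr2f6 (0.13 ± 0.10). Nr0b2 was at 27.0 CPM in caffeine replicate 2 and at 16.7 to 18.5 CPM in the other 5 hearts, and its log2 fold change was 0.03 without that heart. Nr2f6 was at 0.04 with library size alone as the scaling and at 0.06 without vehicle replicate 1. Hnf4a, a receptor of liver and gut, did not pass the filter on low counts.

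Coactivators and corepressors were lower in 16 of 17 genes, all but the histone deacetylase Hdac3, with a median log2 fold change of -0.16, none past the test and 2 at an unadjusted p below 0.05. Lpin1, a phosphatidate phosphatase that also coactivates PPARα with PGC-1α, was measured at 274, 261 and 187 CPM in vehicle hearts and 198, 206 and 177 CPM in caffeine hearts (-0.32 ± 0.13, adjusted p = 0.542). Tbl1x, a subunit of the corepressor complexes, and Nrip1 (RIP140), a repressor of oxidative genes, had log2 fold changes of -0.24 ± 0.11 and -0.25 ± 0.13, and Nrip1 was lower in every caffeine heart. In this list 2 of 17 genes had every caffeine heart below every vehicle heart, against 7.12% of all tested genes, and the 2 at an unadjusted p below 0.05 stood against 4.4%. Vehicle replicate 2 was the highest heart for 8 of the 17 genes and caffeine replicate 1 the lowest for 8. The median was -0.10 without vehicle replicate 2 and -0.09 without caffeine replicate 1, with 15 and 16 genes lower.

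Of 21 regulators upstream of PGC-1, 14 were lower and 7 higher, with a median of -0.06 and none past the test. An unadjusted p below 0.05 with a lower level was met by 2 of 21, against 4.4% of all tested genes. In 3 of the 21 every caffeine heart was below every vehicle heart, against 7.12% of all tested genes. Prkag2, the heart-enriched regulatory subunit of the energy sensor AMPK, was measured at 30.3, 33.3 and 27.4 CPM in vehicle hearts and 24.5, 21.6 and 22.9 CPM in caffeine hearts. Every caffeine heart was below every vehicle heart, and the log2 fold change was -0.40 ± 0.12 (adjusted p = 0.297). Foxo1, an insulin-restrained transcription factor, was also lower in every caffeine heart, at 27.9 to 34.8 CPM against 38.5 to 44.9 CPM (-0.34 ± 0.12, adjusted p = 0.387). The kinase Akt2 and the ubiquitin ligase subunit Fbxw7 each had a log2 fold change of -0.19, with SEs of 0.10 and 0.12. Without caffeine replicate 1, 8 of the 21 genes were lower and the median was 0.02, and the median was -0.03 without vehicle replicate 3 and -0.10 without caffeine replicate 2.

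PPAR target genes were lower in 33 of 36 tested (Fgf21 did not pass the filter), with a median log2 fold change of -0.20, while 49.8% of all tested genes were lower. None of the 36 was called. An unadjusted p below 0.05 with a lower level was met by 11 of 36, against 4.4% of all tested genes, and 8 of 36 had every caffeine heart below every vehicle heart, against 7.12%. The 3 genes not lower were Acaa1a, Ucp2 and Plin2. The smallest p belonged to Ech1, an auxiliary enzyme of unsaturated fatty acid oxidation, which was measured at 1860, 1540 and 1642 CPM in vehicle hearts and 1231, 1103 and 1221 CPM in caffeine hearts. All caffeine hearts were below all vehicle hearts, with a log2 fold change of -0.50 ± 0.10 (adjusted p = 0.102). The fatty acid transporter Slc27a1 was measured at 161, 150 and 155 CPM against 134, 127 and 117 CPM (-0.31 ± 0.09, adjusted p = 0.279). Acaa2, the last enzyme of the mitochondrial β-oxidation spiral, was at 722 to 879 CPM against 590 to 693 CPM (-0.33 ± 0.10, adjusted p = 0.318). Decr1, which like Ech1 handles unsaturated fatty acids, was at 360 to 440 CPM against 305 to 356 CPM (-0.32 ± 0.10, adjusted p = 0.348).

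ERR target genes were lower in 33 of 35, all but the adenine nucleotide carrier Slc25a4 and myoglobin (Mb), with a median log2 fold change of -0.11 and none called. An unadjusted p below 0.05 with a lower level was met by 4 of 35, against 4.4% of all tested genes, and 8 of 35 had every caffeine heart below every vehicle heart, against 7.12%. Citrate synthase (Cs) was measured at 1509, 1334 and 1197 CPM in vehicle hearts and 1086, 1167 and 1099 CPM in caffeine hearts (-0.27 ± 0.10, adjusted p = 0.422). Sdha, the catalytic subunit of succinate dehydrogenase, was at 988 to 1351 CPM against 890 to 1017 CPM (-0.29 ± 0.12, adjusted p = 0.497). Etfa, which passes electrons from fatty acid oxidation to the respiratory chain, and Ndufs1, a complex I subunit, each had a log2 fold change of -0.22, with SEs of 0.09 and 0.10. Mb was higher in every caffeine heart, at 19207 to 21095 CPM against 17592 to 18855 CPM (0.12 ± 0.10, adjusted p = 0.796).

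**Figure D4:**
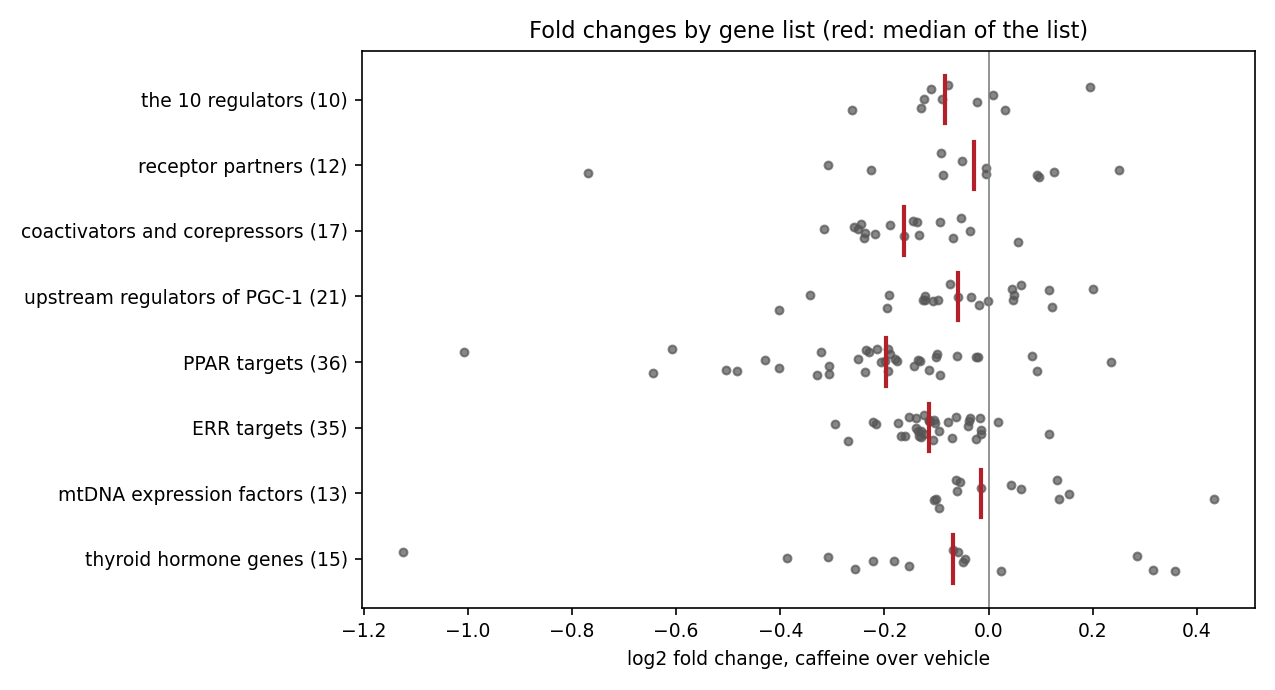
Log2 fold change, caffeine over vehicle, of each tested gene in the 7 lists of partners, cofactors, upstream regulators and targets and of the 10 regulators, with the median of each group. The PPAR and ERR targets lie mostly below 0 (33 of 36 and 33 of 35, medians -0.20 and -0.11). The genes listed for mitochondrial DNA expression lie around 0 (median -0.01).

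Vehicle replicate 1 stood apart in both target lists. It was the highest of the 6 hearts for 30 of 36 PPAR targets (83.3%) and 34 of 35 ERR targets (97.1%), but for 0 of the 10 regulators and 18.7% of all tested genes. Its median deviation from the mean over hearts was 0.25 on the log2 scale for PPAR targets, 0.20 for ERR targets and -0.02 for the regulators. Without this heart, 27 of 36 PPAR targets were lower with a median of -0.12, and 22 of 35 ERR targets were lower with a median of -0.03. Vehicle replicate 1 also had the highest summed level of ventricular cardiomyocyte markers, 68744 CPM where the other 5 hearts had 57662 to 62164 CPM. Over the groups, 6 of 8 cardiomyocyte markers were lower in caffeine hearts (median log2 fold change -0.09), and their part in the target lists was not tested.

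**Figure D5:**
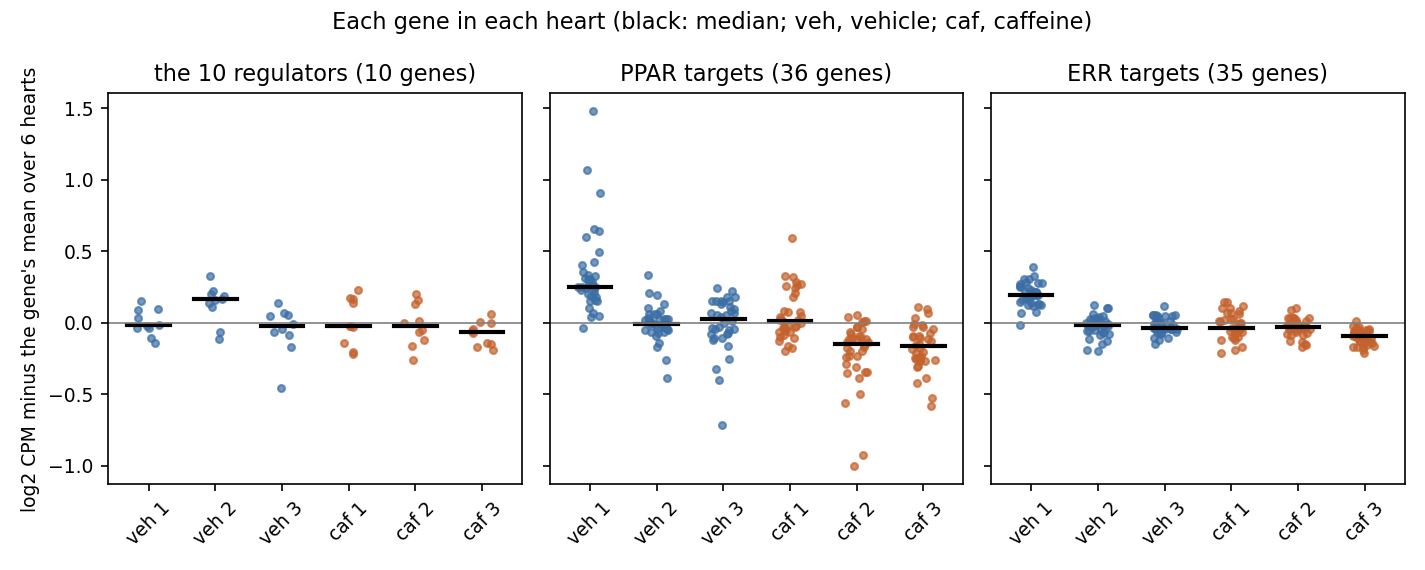
Deviation of each gene from its own mean over the 6 hearts, in log2 CPM, for the regulators, the PPAR targets and the ERR targets, with a line at the median of each heart. Vehicle replicate 1 is the high heart for both target lists (medians 0.25 and 0.20) and lies at -0.02 for the regulators, for which vehicle replicate 2 is the high heart (0.16).

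A pathway that PGC-1 coactivators feed is the expression of mitochondrial DNA, for which 13 genes were listed. They include genes that copy this DNA and the nuclear transcription factors Nrf1, Gabpa and Gabpb1. Of the 13, 7 were lower and 6 higher, with a median of -0.01. No gene had an unadjusted p below 0.05, against 8.82% of all tested genes. No gene had groups that were apart, against 14.2% in either direction. The sign of this median turned, to between 0.01 and 0.02, without vehicle replicate 1 or 3 or caffeine replicate 1 or 3. The smallest p-values belonged to Tfb1m, an rRNA methyltransferase (0.43 ± 0.24), the elongation factor Tefm (0.14 ± 0.13), the DNA polymerase subunit Polg (-0.10 ± 0.10) and Gabpa (-0.11 ± 0.11), with adjusted p from 0.656 to 0.839. The 37 genes of the mitochondrial genome itself had 0 counts in all hearts and were not analysed.

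Genes of thyroid hormone transport and metabolism and its heart targets were lower in 11 and higher in 4 of 15 tested, with a median log2 fold change of -0.07. The median was -0.13 without vehicle replicate 2, -0.15 without vehicle replicate 3 and -0.18 without caffeine replicate 2. None was called by the quasi-likelihood test. An unadjusted p below 0.05 was met by 3 lower and 1 higher, against 4.4% and 4.42% of all tested genes. Of the 15, 3 had every caffeine heart below every vehicle heart and 1 had every caffeine heart above, against 7.12% and 7.11%. Hcn4, the pacemaker channel, was measured at 15.5, 15.9 and 9.83 CPM in vehicle hearts and 7.42, 6.10 and 5.51 CPM in caffeine hearts, with all caffeine hearts below (-1.12 ± 0.21, adjusted p = 0.102), and 7 of 17 alternative analyses called it. Myh7 was measured at 723, 732 and 785 CPM in vehicle hearts and 882, 1061 and 927 CPM in caffeine hearts, with all caffeine hearts above (0.36 ± 0.09, adjusted p = 0.246). Myh6 was at 16389, 13008 and 11940 CPM against 9022, 12550 and 11816 CPM, and its groups overlapped (-0.31 ± 0.15, adjusted p = 0.599). The β1-adrenergic receptor Adrb1 (-0.39 ± 0.14, adjusted p = 0.422) and the channel Hcn2 (-0.26 ± 0.10, adjusted p = 0.459) were lower in every caffeine heart. For Adrb1 this was nearly a tie. Vehicle replicate 1 deviated from the mean over hearts by -0.109 and caffeine replicate 3 by -0.111 on the log2 scale. Dio1, Dio3 and Crym did not pass the filter.

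Markers of other cells that a ventricle holds were set beside these lists. All 5 fibroblast markers had a higher fitted level in caffeine hearts, with a summed level of 832 to 989 CPM against 678 to 782 CPM. So did all 5 macrophage markers, at 148 to 277 against 122 to 193 CPM. Every caffeine heart was above every vehicle heart for 1 of the 5 fibroblast and 2 of the 5 macrophage markers, against 7.11% of all tested genes. Endothelial markers summed to 638 to 697 CPM in caffeine and 632 to 719 CPM in vehicle hearts, and smooth muscle markers to 95.9 to 114 and 94.4 to 147 CPM. Lymphocyte markers, none past the filter on low counts, summed to 0.938 to 1.26 CPM in caffeine and 0.405 to 0.662 CPM in vehicle hearts. Of the brown fat markers, Ucp1 had no count in any heart and Cidea was at 25.4 to 30.1 CPM. None of these lists held a called gene, and their part in the values of the regulators and their targets was not tested.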

How the data were processed

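Poly(A) RNA of 6 left ventricles (3 vehicle, 3 caffeine) was sequenced by the authors on an Illumina NextSeq500 from libraries of a kit that does not mark strand. Per the submitters' processing notes and the study's methods, FastQC, TopHat2 (mm10) and HTSeq (Ensembl release 79) were used, and the deposited values are raw counts per gene, not normalized or pooled. HTSeq's strand setting is not given in the sources used here. Groups were taken from the labels.

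Genes were filtered with filterByExpr (minimum count 10, minimum total 15), scaled by TMM and tested with edgeR's quasi-likelihood test (edgeR 4.0.16, R 4.3.3) with treatment as the only term. P-values were Benjamini-Hochberg adjusted over 13092 genes. SE is the absolute log2 fold change divided by the square root of F. The common dispersion corresponded to a biological coefficient of variation of 12.1%. Floors and counting errors cover counting error only. The fit was tested on simulated data. Exons were taken from GENCODE release 21 (mouse series M, GRCm38), with 1167 identifiers unmatched to a symbol. The alternatives tried were the exact test, the likelihood ratio test and the robust fit of edgeR, DESeq2 1.42.0, limma-voom (limma 3.58.1), other scalings and filters, a replicate block and each heart left out. A fit without the 10 genes with most counts was added after seeing the data.

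The 10 regulators and all gene lists were chosen with earlier results of these data known. Named from each list were the 4 genes with the smallest p and any called gene, and for the regulator with the smallest p the 5 nearest profiles. The values of 1 listed gene are not reported here. The genes higher against the direction of a list (Hdac3, Acaa1a, Ucp2, Plin2, Slc25a4 and Mb) and Cidea were named after their values were seen.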

Additional observations from a re-analysis of the deposited data

How the results depend on the processing

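No regulator was called under any of the 17 alternatives run for each. Alternatives that changed only the test left the fold changes almost as they were and could hardly turn a direction. Of the 170 alternative values, 161 kept their direction. The 9 that turned belonged to 3 genes with log2 fold changes near 0: Ppargc1a (-0.051 with library size only, -0.15 to 0.15 with a heart left out), Ppargc1b (-0.14 to 0.16 with a heart left out) and Esrra (-0.080 with library size only, -0.013 with no filter, -0.081 to 0.070 with a heart left out). The number of genes called among all tested was 14 and became 94 with the exact test, 101 with the likelihood ratio test, 67 with DESeq2, 27 with library size only, 240 with no filter and 4 to 28 with a heart left out (4 without vehicle replicate 2 or caffeine replicate 3, 28 without vehicle replicate 3, 27 without vehicle replicate 1, 22 without caffeine replicate 2 and 8 without caffeine replicate 1). PPAR targets held 1 called gene with library size only (Ech1) and 2 with no filter (Ucp3 and Angptl4). Over the 17 alternatives, adjusted p ran from 2.79e-05 to 0.247 for Ech1 and from 0.0293 to 0.678 for Acaa2. It ran from 0.0439 to 0.703 for Decr1 and from 0.043 to 0.529 for Myh7 of the thyroid hormone list. The lowest value of each gene met the limit on adjusted p. Acaa2, Decr1 and Myh7 had no call because their fold changes stayed under the limit. Their log2 fold changes reached at most -0.41, -0.41 and 0.41. The thyroid hormone list held 1 called gene, Hcn4, under the exact and likelihood ratio tests, DESeq2, library size only and no filter, and 0 to 1 with a heart left out (1 without vehicle replicate 3). The other 5 lists held no call under any alternative. Receptor partners were lower in 5 of 11 genes where at least 10 counts in every heart were required, and upstream regulators of PGC-1 in 8 to 16 of 21 with a heart left out. The cause of these moves was not tested.

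Over all tested genes, same-numbered hearts correlated at 0.045, -0.03 and -0.038 in their deviations from the group means. Not every heart correlated best with its own number. These values show no general pairing by replicate number, but they cannot show whether some genes followed a shared litter or day. With the replicate number as a block, 40 genes were called among all tested and 1 (Hcn4) in the thyroid hormone list. The regulators had no call with it either.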

Other observations

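Some PPAR targets separated the hearts of a group more than the groups, and were picked here after their values were seen. Pdk4, the kinase that shuts pyruvate out of the mitochondrion in fasting, was measured at 2027, 739 and 810 CPM in vehicle hearts and 1096, 780 and 782 CPM in caffeine hearts (log2 fold change -0.43 ± 0.32, adjusted p = 0.767). Ucp3, an uncoupling protein homologue that rises with fatty acid supply, was at 113, 38.3 and 37.4 CPM in vehicle hearts and 46.6, 21.1 and 26.9 CPM in caffeine hearts (-1.01 ± 0.41, adjusted p = 0.512). Angptl4, a secreted inhibitor of lipoprotein lipase, was at 21.3, 15.7 and 15.1 CPM against 17.1, 6.66 and 10.9 CPM (-0.61 ± 0.27, adjusted p = 0.561). Txnip, a glucose-responsive inhibitor of thioredoxin, was at 751, 567 and 481 CPM against 597, 349 and 343 CPM (-0.48 ± 0.21, adjusted p = 0.557). In each of the 4 genes replicate 1 was the highest heart of its own group, and vehicle replicate 1 the highest of all 6. The replicate numbers are not known to mark a shared day or litter.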
